A study of Homo sapiens with 23 samples.

Results

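The 10 genes described here encode acute-phase proteins of the liver and a feedback inhibitor of interleukin-6 (IL-6) signalling: SAA1, SAA2, SAA4, CRP, HP, HPX, ORM1, ORM2, LBP and SOCS3. They were chosen by gene symbol, and all 10 were found among the 60564 genes listed for each library. Expression was measured by mRNA-seq in Caco-2 cells, a human colorectal adenocarcinoma line that stands for the gut, and HepG2 cells, a human hepatocellular carcinoma line that stands for the liver. Both lines were kept in iGLC, a microfluidic gut-liver chip in which medium circulates between 2 chambers. Each line was either mono-cultured, with no partner line, or co-cultured with the other line, and received 1 mM free fatty acids (FFAs, palmitic and oleic acid) for 1 day or no FFAs (control).

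The 23 libraries fall into 8 groups. All have 3 libraries but Caco-2 co-culture control, which has 2, and this gives 11 Caco-2 and 12 HepG2 libraries. In the text below, the values of a group are given in the order of its replicate numbers. The labels do not say whether replicates came from separate chips or days, so p-values measure only the spread between these libraries, which may be technical. Values are TPM, transcript shares that add up to a fixed total per library and are scaled by transcript length, so that levels of different genes within a library can be compared. TPM keep no record of read numbers, so depth is unknown and counting error cannot be stated. A library listed 19259 to 23689 genes with a value above 0.

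The acute-phase response is the change in plasma proteins that the liver makes during inflammation. IL-6 and related cytokines bind receptors that share the subunit gp130 (IL6ST), JAK kinases then phosphorylate the transcription factor STAT3, and STAT3 acts with C/EBP factors at genes of secreted proteins. SOCS3 is induced by STAT3 and in turn blocks gp130 and JAK. Its transcript is a reporter of the pathway, and a short-lived one.

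Some sequences are shown because they bear on how the members were measured or are known to be regulated. ORM1 and ORM2 lie side by side and their coding sequences (603 bases each) differ at 31 bases, an identity of 94.9%, so that 36.1% of all 50-base words of ORM1 occur unchanged in ORM2. The 60-base stretch with the most differences, coding bases 338 to 397 of the GENCODE v44 transcripts, holds 14 of them, given in capitals:
ORM1: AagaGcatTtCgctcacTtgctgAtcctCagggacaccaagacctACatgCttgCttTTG
ORM2: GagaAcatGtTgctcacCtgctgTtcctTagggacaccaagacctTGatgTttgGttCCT
The 250 bases before the RefSeq starts (GRCh38.p14) of SAA4 and CRP are shown because SAA4 was expressed in every HepG2 library and CRP was listed at 0 in all. The SAA4 window, chr11:18236803-18237052 on the minus strand, holds 3 matches to the C/EBP sequence TTGCNNAA or its reverse TTNNGCAA, in capitals, and 9.05% of 35116 RefSeq promoters of that length hold at least 1. The CRP window, chr1:159714590-159714839 on the minus strand, holds 1 match to the STAT sequence TTCNNGAA, which reads the same on both strands, in capitals, found in 6.62% of promoters:
SAA4: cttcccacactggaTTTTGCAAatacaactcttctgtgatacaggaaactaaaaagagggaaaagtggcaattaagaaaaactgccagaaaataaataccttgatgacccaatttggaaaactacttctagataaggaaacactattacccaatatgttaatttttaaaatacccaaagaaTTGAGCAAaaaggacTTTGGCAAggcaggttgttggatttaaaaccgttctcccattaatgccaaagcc
CRP: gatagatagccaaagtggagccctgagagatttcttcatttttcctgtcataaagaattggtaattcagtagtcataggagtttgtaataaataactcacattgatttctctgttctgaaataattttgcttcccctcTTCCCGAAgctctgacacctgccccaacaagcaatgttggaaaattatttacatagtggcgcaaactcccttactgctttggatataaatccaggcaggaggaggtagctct
A match is a run of letters and not a measured binding site. RefSeq promoters were matched for 5 of the 10 members (SAA4, CRP, HPX, ORM1 and SOCS3), and those of SAA1, SAA2, HP, ORM2 and LBP were not matched.

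Some libraries differed from the rest in ways that touch these genes. The 4 HepG2 replicate 3 libraries stood apart: their HP level was 321 to 815 TPM, against 112 to 286 TPM in the other 8. Results in HepG2 cells are therefore also given without replicate 3 of every group. RNA of the partner line was estimated from genes, members left out, whose mono-culture control libraries all had 50 TPM or more in one line and all had 1 TPM or less in the other. The 33 HepG2 genes of this kind summed, in mono-cultured Caco-2 libraries, to 0.102% to 0.184% of their level in HepG2 cells. In co-cultured Caco-2 libraries they summed to between 0.0901% and 2.09%, with the highest shares in control replicate 1 (0.822%) and FFAs replicate 1 (2.09%). The 63 Caco-2 genes reached 0.127% to 0.242% in mono-cultured and 0.19% to 0.613% in co-cultured HepG2 libraries. As a check of the lines, 15 genes listed as hepatocyte markers were read. Each averaged at least 1 TPM over the HepG2 and also over the Caco-2 libraries. Their summed level was 6292 to 9702 TPM in Caco-2 against 70774 to 104982 TPM in HepG2 cells. SPP1 averaged at least 1 TPM in Caco-2 cells only through co-cultured libraries (19.6 TPM in control replicate 1 and 39.6 TPM in FFAs replicate 1, at most 1.04 TPM in the others). Its mono-culture means were 0.45 and 0.46 TPM. Whether each listed gene, SPP1 among them, is particular to hepatocytes was not tested. Of 13 intestinal epithelial markers, 11 averaged at least 1 TPM in Caco-2 and 5 in HepG2 cells.

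**Figure D1:**
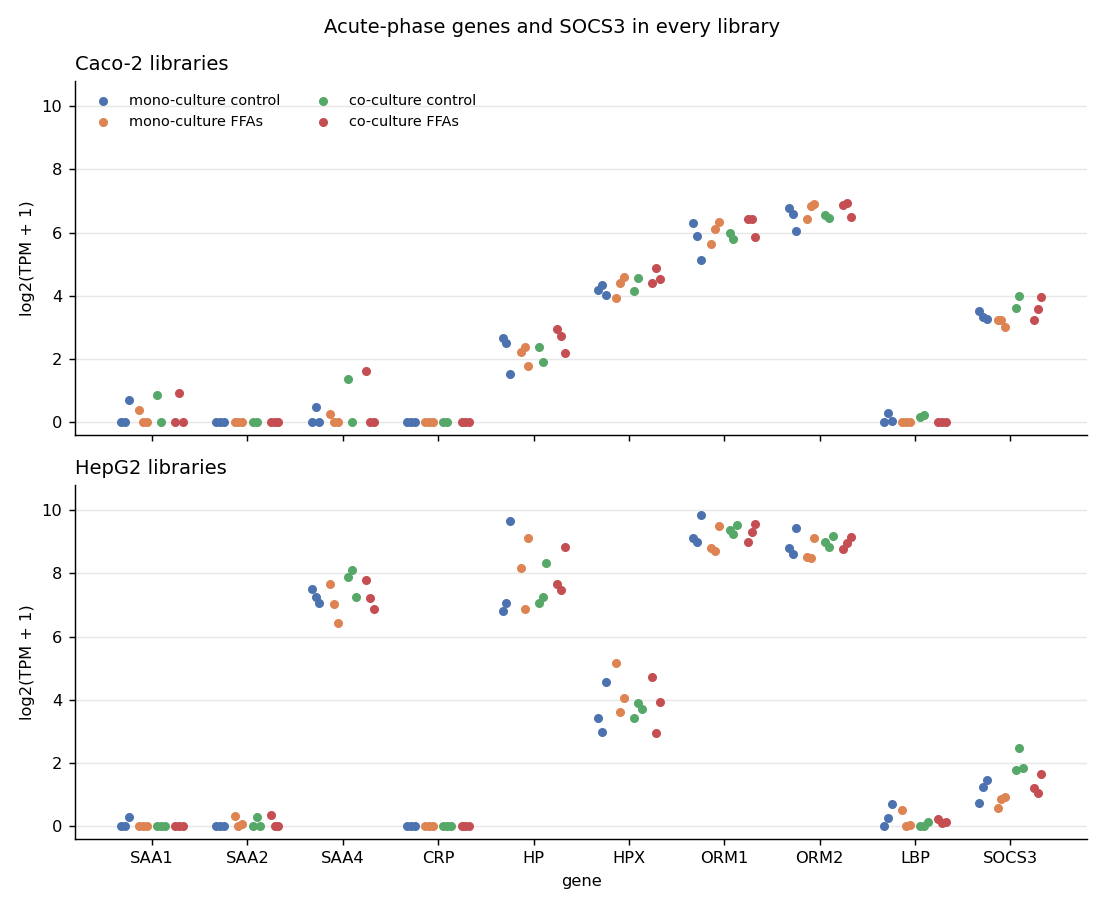
Expression of the 10 members as log2(TPM + 1) on the vertical axis in every library, Caco-2 cells above and HepG2 cells below, with a colour for each combination of culture and treatment. SAA1, SAA2, CRP and LBP stay near 0 in both lines, SAA4 is high only in HepG2 cells, ORM1 and ORM2 have the highest means in both lines although HP (815 TPM) exceeds ORM2 (689 TPM) in HepG2 mono-culture control replicate 3, and SOCS3 is higher in Caco-2 cells.

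The serum amyloid A genes lie together on chromosome 11. SAA1 (ENSG00000173432, chr11:18266260-18269977) and SAA2 (ENSG00000134339, chr11:18239223-18248668) encode the forms that rise in inflammation, and SAA4 (ENSG00000148965, chr11:18231355-18236802) encodes the constitutive form carried on lipoproteins. SAA1 was listed at 0 in 18 of 23 libraries and at most 0.90 TPM in the others. SAA2 was listed at 0 in all 11 Caco-2 libraries and had at most 0.27 TPM in HepG2 cells. Their coding sequences are 97.0% identical, and 43.2% of 50-base words are shared, so that these low values could be split between them by the counting. SAA4 shares no 50-base word of its coding sequence with SAA1. The read-through gene SAA2-SAA4 and the pseudogene SAA3P were listed at 0 in all 23 libraries.

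SAA4 was expressed in HepG2 cells in every condition. Its level was 180, 151 and 134 TPM in mono-culture control and 203, 131 and 84.7 TPM in mono-culture with FFAs. In co-culture it was 235, 277 and 151 TPM without FFAs and 219, 150 and 117 TPM with FFAs. The co-culture control libraries were the highest on average, and every pair of groups overlapped. Averaged over both treatments, the co-culture difference was 0.36 on the log2(TPM + 1) scale (SE 0.22, limma adjusted p = 0.537), and the FFAs difference averaged over both cultures was -0.34 (SE 0.22, limma adjusted p = 1.00). Without replicate 3, co-cultured control exceeded mono-cultured control by 0.63 (SE 0.24, limma adjusted p = 0.451), with an unadjusted p under 0.05.

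In Caco-2 cells SAA4 was listed at 0 in 7 of 11 libraries. The highest values, 1.58 TPM in co-culture control replicate 1 and 2.06 TPM in co-culture FFAs replicate 1, belong to the libraries with the most HepG2 marker RNA. Their HepG2 shares times the mean SAA4 level of mono-cultured control HepG2 cells (155 TPM) come to 1.27 and 3.24 TPM. The other co-cultured Caco-2 libraries were listed at 0, and mono-cultured ones had at most 0.39 TPM.

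CRP and LBP are classical IL-6-responsive proteins, C-reactive protein binding phosphocholine on damaged cells and microbes, and LBP carrying bacterial lipopolysaccharide to CD14. CRP (ENSG00000132693, chr1:159712289-159714589) was listed at 0 in all 23 libraries. LBP (ENSG00000129988, chr20:38346482-38377013) had at most 0.62 TPM in HepG2 and 0.21 TPM in Caco-2 cells. In Caco-2 cells, LBP was listed at 0 in all 6 FFAs libraries, while the control libraries had 0, 0.21 and 0.02 TPM in mono-culture and 0.13 and 0.17 TPM in co-culture (exact permutation test over the 4 groups, p = 0.0591). With SAA1, SAA2 and CRP, LBP averaged less than 1 TPM in all groups of both lines, so these 4 members were not tested by limma in either line.

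HP encodes haptoglobin, which binds free haemoglobin, and HPX encodes haemopexin, which binds free haem. HP (ENSG00000257017, chr16:72054505-72061055) was the member with the largest spread between replicates in HepG2 cells. In mono-culture its level was 112, 133 and 815 TPM without FFAs and 286, 116 and 554 TPM with FFAs. In co-culture it was 132, 152 and 321 TPM without FFAs and 202, 178 and 452 TPM with FFAs. In each of the 4 groups, replicate 3 was the highest library, and the mean of the replicate 3 libraries was 3.27 times that of the others. The co-culture difference averaged over treatments was -0.18 (SE 0.52, limma adjusted p = 0.918) and the FFAs difference averaged over cultures was 0.32 (SE 0.52, limma adjusted p = 1.00). Without replicate 3 of every group, the co-culture difference turned to the other side of 0, at 0.14 (SE 0.25, limma adjusted p = 0.825), and the FFAs difference was 0.50 (SE 0.25, limma adjusted p = 0.614).

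Other members moved with the replicate number less. The ratio of means of replicate 3 to the other HepG2 libraries was 1.45 for ORM1, 1.38 for ORM2, 1.16 for SOCS3 and 1.09 for HPX. SAA4 went the other way, with a ratio of 0.631. What set the replicate 3 libraries apart was not tested.

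**Figure D2:**
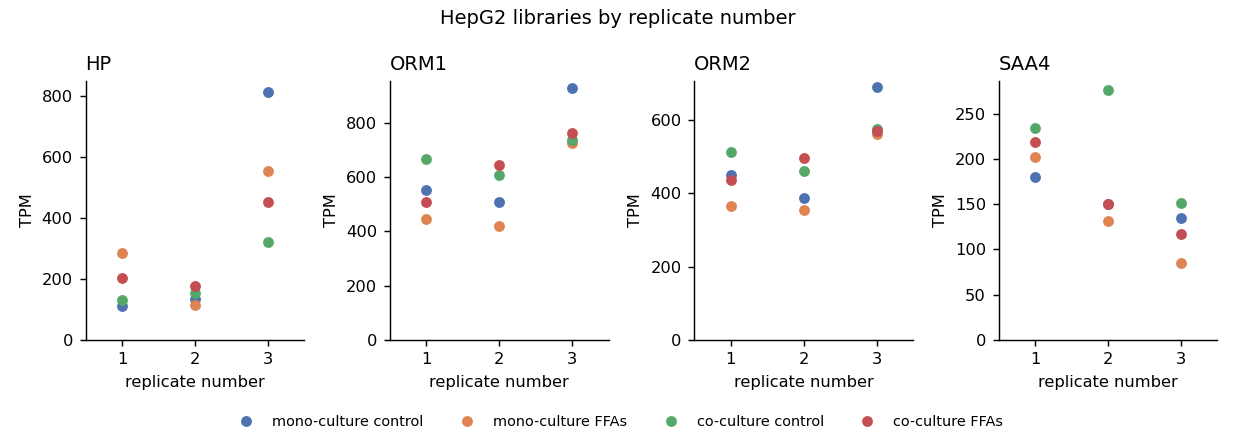
TPM of HP, ORM1, ORM2 and SAA4 in the 12 HepG2 libraries on the vertical axis, by replicate number on the horizontal axis, with a colour for each group. HP is 321 to 815 TPM in replicate 3 and 112 to 286 TPM in replicates 1 and 2, while SAA4 tends to be lower in replicate 3 (84.7 to 151 TPM against 131 to 277 TPM).

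In Caco-2 cells HP was low, with 5.35, 4.72 and 1.88 TPM in mono-culture control and 3.66, 4.16 and 2.41 TPM with FFAs. Co-cultured Caco-2 cells had 4.16 and 2.72 TPM without FFAs and 6.67, 5.57 and 3.55 TPM with FFAs, and all groups overlapped. For FFAs in co-cultured Caco-2 cells the difference was 0.48 (SE 0.35, limma adjusted p = 1.00), and it was 0.70 without replicate 3 of every group (SE 0.23, limma adjusted p = 0.501, under 0.05 before adjustment). The HepG2 share times the HP mean of mono-cultured control HepG2 cells (353 TPM) came to 7.39 TPM in co-culture FFAs replicate 1. It came to 2.90 TPM in co-culture control replicate 1 and to 0.318 to 0.872 TPM in the other co-cultured Caco-2 libraries. HPR (chr16:72063148-72077246), the haptoglobin-related gene next to HP, shares 25.7% of the 50-base words of the HP coding sequence. It had 1.68 to 5.81 TPM in Caco-2 and 37.0 to 83.1 TPM in HepG2 cells, 0.102 to 0.458 times the HP level in the latter. HPR in HepG2 cells was 37.0 to 51.1 TPM in the 6 co-cultured libraries and 49.1 to 83.1 TPM in the 6 mono-cultured ones, a difference of -0.63 (SE 0.14, limma adjusted p = 0.125). With HP and HPR summed, the co-culture difference in HepG2 cells was -0.29 (SE 0.45, limma adjusted p = 0.832).

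HPX (ENSG00000110169, chr11:6431049-6442617) had overlapping ranges in the lines, 14.2 to 28.1 TPM in Caco-2 and 6.74 to 34.7 TPM in HepG2 cells. Caco-2 cells had 17.4, 19.3 and 15.2 TPM in mono-culture control, 14.2, 20.3 and 23.2 TPM with FFAs, 16.8 and 22.6 TPM in co-culture control and 20.1, 28.1 and 21.9 TPM in co-culture with FFAs. HepG2 cells had 9.66, 6.86 and 22.6 TPM in mono-culture control and 34.7, 11.1 and 15.6 TPM with FFAs. In co-culture they had 9.84, 13.8 and 11.9 TPM without and 25.5, 6.74 and 14.3 TPM with FFAs. The FFAs means exceeded the control means in both cultures of both lines, but the groups compared overlapped, with averaged differences of 0.18 (SE 0.14, limma adjusted p = 0.990) in Caco-2 and 0.41 (SE 0.36, limma adjusted p = 1.00) in HepG2 cells. Without replicate 3 of every group the HepG2 value was 0.68 (SE 0.45, limma adjusted p = 0.683).

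ORM1 (ENSG00000229314, chr9:114323098-114326479) and ORM2 (ENSG00000228278, chr9:114329869-114333251) encode alpha-1-acid glycoprotein, a plasma protein that binds lipophilic drugs, and had the highest mean levels of the members in both lines. In HepG2 cells ORM1 had 553, 509 and 928 TPM in mono-culture control, 445, 419 and 724 TPM with FFAs, 667, 606 and 735 TPM in co-culture control and 507, 642 and 762 TPM in co-culture with FFAs. ORM2 followed with 450, 388 and 689 TPM, 365, 355 and 560 TPM, 511, 461 and 576 TPM, and 436, 496 and 569 TPM in the same order. Groups overlapped throughout, and the averaged co-culture differences were 0.18 for ORM1 (SE 0.18, limma adjusted p = 0.728) and 0.16 for ORM2 (SE 0.15, limma adjusted p = 0.7265). Without replicate 3 of every group they had unadjusted p-values under 0.05 and were 0.33 for ORM1 (SE 0.09, limma adjusted p = 0.173) and 0.29 for ORM2 (SE 0.08, limma adjusted p = 0.177).

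In Caco-2 cells ORM1 had 77.4, 59.0 and 34.1 TPM in mono-culture control, 49.0, 68.7 and 79.6 TPM with FFAs, 62.7 and 54.3 TPM in co-culture control and 85.9, 86.1 and 57.3 TPM in co-culture with FFAs. ORM2 had 109, 94.3 and 65.5 TPM, 85.8, 115 and 120 TPM, 92.3 and 87.7 TPM, and 116, 121 and 88.7 TPM. The FFAs means were above the control means, with averaged differences of 0.31 (SE 0.21, limma adjusted p = 0.990) for ORM1 and 0.26 (SE 0.14, limma adjusted p = 0.990) for ORM2, and the groups overlapped. Without replicate 3, the FFAs difference in co-cultured Caco-2 cells was 0.55 for ORM1 (SE 0.18, limma adjusted p = 0.510) and 0.39 for ORM2 (SE 0.14, limma adjusted p = 0.530), both under 0.05 before adjustment.

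The balance of the pair differed between the lines. ORM2 was 1.35 to 1.92 times ORM1 in the 11 Caco-2 libraries and 0.743 to 0.860 times ORM1 in the 12 HepG2 libraries, with no overlap. The reads shared by the pair are divided by estimation, so the ratio depends on how the authors' software assigned them. The sum of both genes, which depends less on that step, was 99.6 to 207 TPM in Caco-2 and 774 to 1617 TPM in HepG2 cells. Their log2(TPM + 1) values moved together, with a Pearson r of 0.970 over the Caco-2 and 0.988 over the HepG2 libraries, a description of genes that share reads and libraries.

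**Figure D3:**
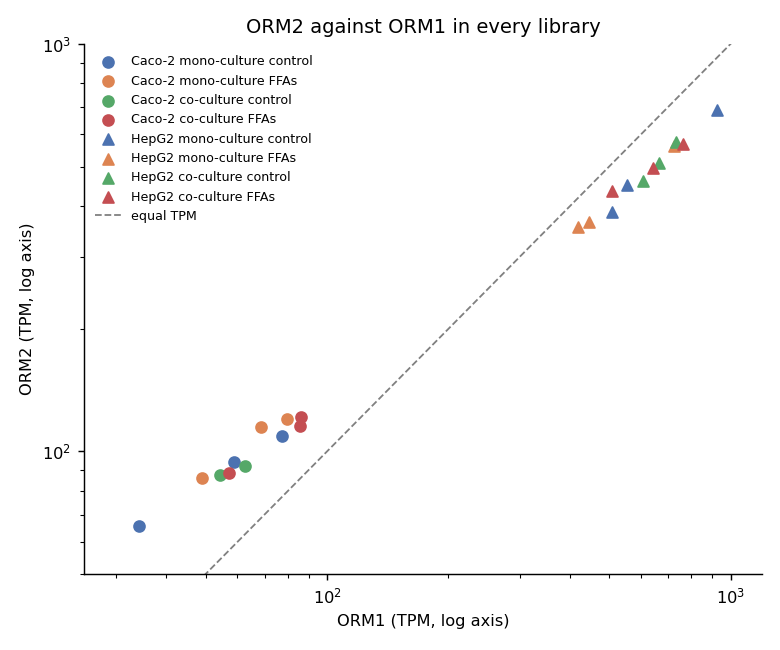
ORM2 TPM (vertical, log axis) against ORM1 TPM (horizontal, log axis) in the 23 libraries, with a marker shape for each line, a colour for each combination of culture and treatment, and a dashed line of equal TPM. All Caco-2 libraries lie above the line, at ratios of 1.35 to 1.92, and all HepG2 libraries below it, at ratios of 0.743 to 0.860.

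SOCS3 (ENSG00000184557, chr17:78356778-78360077) had the smallest p of all members among the 4 groups of HepG2 cells. In mono-culture it had 0.68, 1.38 and 1.78 TPM without FFAs and 0.49, 0.83 and 0.91 TPM with FFAs. In co-culture it had 2.42, 4.55 and 2.56 TPM without FFAs and 1.29, 1.08 and 2.11 TPM with FFAs. For either treatment, the lowest co-cultured library exceeded the highest mono-cultured one, and in co-culture every FFAs library was below every control library, while mono-culture control and FFAs overlapped. Means were 1.28 ± 0.557, 0.743 ± 0.223, 3.18 ± 1.19 and 1.49 ± 0.544 TPM (SD, n = 3 each) in the same order. Co-cultured control was thus 2.48 times mono-cultured control and co-cultured FFAs 2.01 times mono-cultured FFAs, whereas FFAs libraries had 0.581 times the control mean in mono-culture and 0.470 times in co-culture.

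Before adjustment, the limma p was under 0.05 for averaged co-culture, co-culture without FFAs, FFAs in co-culture and averaged FFAs, and none of these contrasts passed the adjustment over all genes. On the log2(TPM + 1) scale, which understates changes of genes this low, the co-culture difference averaged over treatments was 0.69 (SE 0.19, limma adjusted p = 0.189). It was 0.87 without FFAs (SE 0.28, limma adjusted p = 0.598) and 0.50 with FFAs (SE 0.28, limma adjusted p = 0.934). The FFAs difference was -0.73 in co-culture (SE 0.28, limma adjusted p = 1.00), -0.36 in mono-culture (SE 0.28, limma adjusted p = 1.00) and -0.55 averaged over cultures (SE 0.19, limma adjusted p = 1.00). The FFAs difference itself did not differ detectably between the cultures (-0.37, SE 0.39, limma adjusted p = 1.00). Without replicate 3 of every group the averaged co-culture difference was 0.76 (SE 0.24, limma adjusted p = 0.226) and FFAs in co-culture gave -0.997 (SE 0.34, limma adjusted p = 0.992).

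By the criteria of the study, a one-way analysis of variance over the 4 groups with an unadjusted p under 0.05 and a fold of at least 1.2 between any pair of groups, SOCS3 was the only member called in HepG2 cells (F = 7.69, p = 0.00962, exact permutation p = 0.00643 over 369600 assignments). Of 29942 HepG2 genes above 0 TPM in at least 1 library, 3.56% met the same criteria. The lowest exact permutation p of the other 8 HepG2 members above 0 was 0.366, for SAA4. The Caco-2 share of each co-cultured HepG2 library times the SOCS3 mean of Caco-2 mono-culture controls came to 0.0178 to 0.0575 TPM.

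In Caco-2 cells SOCS3 was higher than in HepG2 cells, at 10.4, 9.07 and 8.68 TPM in mono-culture control and 8.51, 8.41 and 7.0 TPM with FFAs. In co-culture it had 11.3 and 14.8 TPM without FFAs and 8.42, 10.9 and 14.5 TPM with FFAs. Both co-culture controls were above all mono-culture controls, all mono-culture FFAs libraries were below all mono-culture controls, and both co-culture controls were above all mono-culture FFAs libraries as well. The other pairs of groups overlapped. Means were 9.38 ± 0.902, 7.97 ± 0.844, 13.1 ± 2.43 and 11.3 ± 3.08 TPM (SD, n = 3, 3, 2 and 3). The averaged co-culture difference was 0.43 (SE 0.14, limma adjusted p = 0.355, under 0.05 before adjustment), and the averaged FFAs difference was -0.21 (SE 0.14, limma adjusted p = 0.990). Without replicate 3 of every group the co-culture difference was 0.27 (SE 0.14, limma adjusted p = 0.378, not under 0.05 before adjustment). No Caco-2 member met the criteria of the study, which 3.08% of 31100 genes met, and the exact permutation p of SOCS3 was 0.0832 over 92400 assignments.

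**Figure D4:**
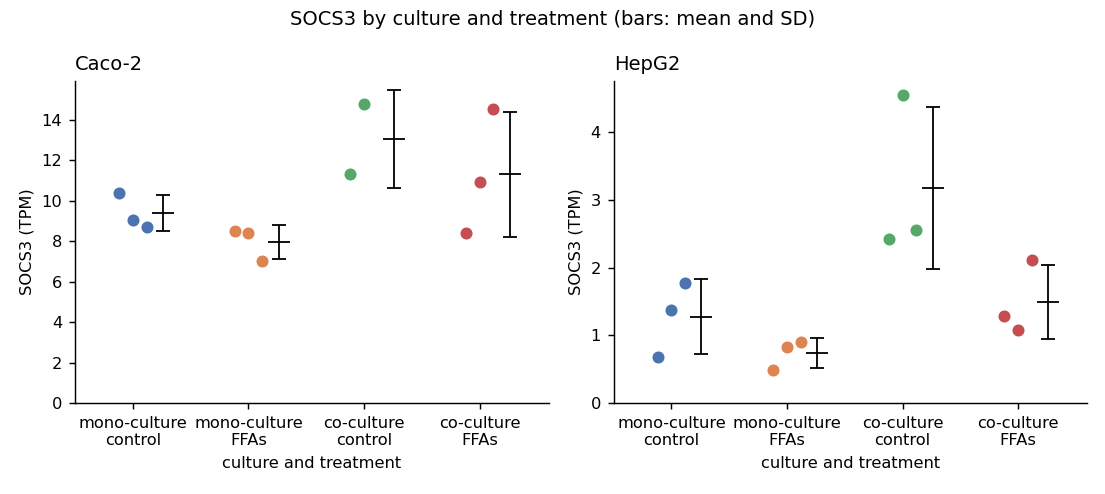
SOCS3 TPM (vertical axis) in each library by culture and treatment, Caco-2 and HepG2 cells in separate panels, with a black dash and error bar for the mean ± SD of each group. In HepG2 cells the co-culture controls (2.42 to 4.55 TPM) lie above all other groups, and in Caco-2 cells the co-culture controls (11.3 and 14.8 TPM) lie above the mono-culture controls (8.68 to 10.4 TPM).

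The share of all genes whose groups did not overlap gives the background for these patterns. Without FFAs, 7.25% of the 14255 HepG2 genes tested were higher in every co-cultured than in every mono-cultured library, and with FFAs 4.17% were. In co-cultured HepG2 cells, 2.40% of genes were lower in every FFAs library. Among the 15081 Caco-2 genes tested, 15.1% were higher in both co-culture controls than in all mono-culture controls, and 2.05% were lower in all FFAs than in all control libraries of mono-culture. SOCS3 was the only tested member to fall in any of these sets.

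Across all members, 5 were tested in Caco-2 cells (HP, HPX, ORM1, ORM2 and SOCS3) and 6 in HepG2 cells (the same and SAA4). None passed the limma threshold, an adjusted p of 0.05, in any contrast within a line, and few genes of any kind did. In Caco-2 cells, 0.0199% of genes tested passed for FFAs in co-culture and 0.0199% for co-culture without FFAs, and 0% for FFAs in mono-culture, co-culture with FFAs, both averaged contrasts and the difference of the FFAs effect between cultures. In HepG2 cells, 8 genes (0.0561%) passed for co-culture averaged over treatments and 0% in the other 6 contrasts. At an unadjusted p under 0.05, co-culture averaged over treatments gave 1 of 5 members in Caco-2 and 1 of 6 in HepG2 cells, SOCS3 in both, against 10.5% and 12.5% of all genes tested. FFAs averaged over cultures gave 0 of 5 and 1 of 6 members, against 3.99% and 3.49%. The median co-culture difference of the members was 0.19 in Caco-2 and 0.17 in HepG2 cells, with medians of 0.03 and -0.02 over all genes. The median FFAs difference was 0.18 in Caco-2 and -0.17 in HepG2 cells, with 0.01 over all genes in both.

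**Figure D5:**
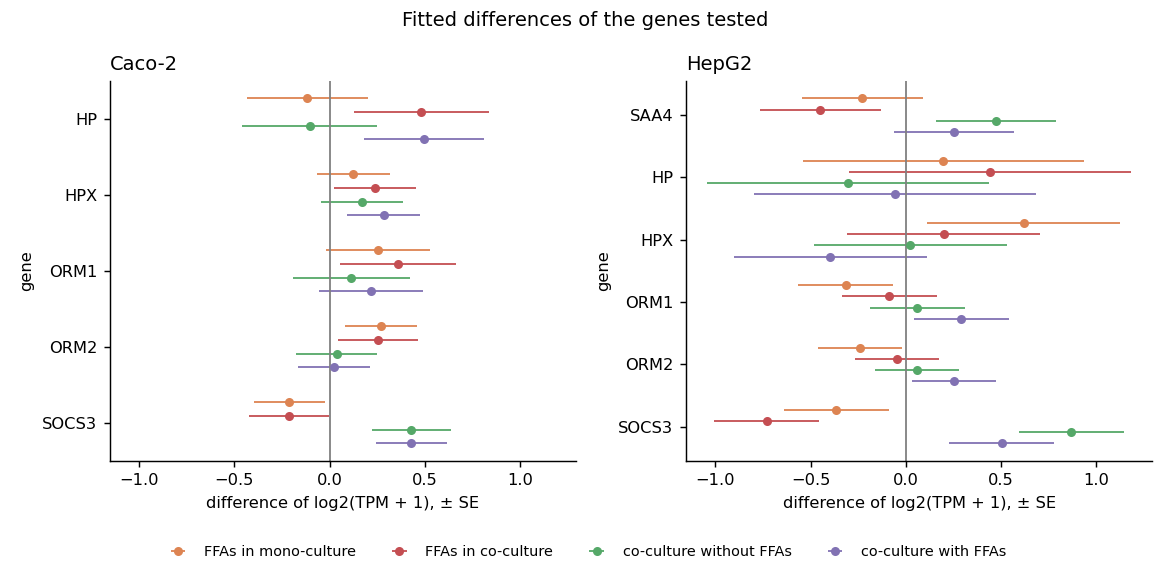
Fitted differences on the log2(TPM + 1) scale (horizontal axis) with SE bars for the members tested, in the 4 pairwise contrasts of each line. SOCS3 in HepG2 cells has the highest value for co-culture without FFAs (0.87) and the lowest for FFAs in co-culture (-0.73), and HP in HepG2 cells has the widest bars (SE 0.74).

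Between the lines, mono-cultured controls differed in most members. On the log2(TPM + 1) scale, HepG2 cells were higher in SAA4 by 7.12 (SE 0.41, limma adjusted p = 1.2e-11), in HP by 5.62 (SE 0.62, adjusted p = 2.08e-07), in ORM1 by 3.55 (SE 0.28, adjusted p = 1.95e-09) and in ORM2 by 2.48 (SE 0.22, adjusted p = 8.84e-09). SOCS3 was lower in HepG2 cells, by -2.21 (SE 0.23, adjusted p = 8.91e-08), with 0.136 times the Caco-2 mean TPM. The difference in HPX was -0.54 (SE 0.42, adjusted p = 0.274). It was called only without HepG2 mono-culture control replicate 3 (22.6 TPM, against 9.66 and 6.86 TPM in the other 2), at -0.99 (SE 0.42, adjusted p = 0.0480), and with other single libraries of that group left out it was -0.42 or -0.20. Thus 4 of the 6 members tested were called higher and 1 lower, where 23.4% of all 16495 genes tested were called higher and 39.0% lower. SAA4 averaged under 1 TPM in every Caco-2 group and passed the filter only through HepG2 groups. The filter thus largely set the direction of the SAA4 call. Leaving out replicate 3 lowered the HP difference to 4.35 and the ORM1 difference to 2.96, and both were still called. In such bulk samples, fewer cells that express a gene and less of its RNA per cell cannot be told apart.

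Ligands of the gp130 family were low in both lines. IL6 had at most 0.30 TPM and OSM at most 0.52 TPM in any library. LIF was the highest ligand, with 2.81 to 8.54 TPM in Caco-2 and 1.08 to 5.61 TPM in HepG2 cells. CTF1 had 2.97 to 4.99 TPM in Caco-2 and 1.12 to 3.06 TPM in HepG2 cells. CLCF1 had 2.24 to 5.86 TPM and 0.46 to 3.03 TPM, and IL11 reached 5.37 TPM in HepG2 cells. No ligand had an unadjusted limma p under 0.05 for averaged co-culture or FFAs, of 3 tested in Caco-2 and 4 in HepG2 cells, but LIF and CTF1 did in single comparisons of groups. LIF in HepG2 cells had 1.57, 1.97 and 2.18 TPM in mono-culture control, 5.61, 3.18 and 3.37 TPM in co-culture control and 1.63, 2.65 and 2.23 TPM in co-culture with FFAs. Its co-culture controls were above all libraries of mono-culture control and of co-culture with FFAs, but overlapped mono-culture with FFAs (1.08 to 3.29 TPM). Of all HepG2 genes tested, 7.25% were higher in all co-culture controls than in all mono-culture controls. In co-culture, 2.40% were lower in all FFAs libraries than in all controls. The LIF differences were 0.77 for co-culture without FFAs (SE 0.28, limma adjusted p = 0.631) and -0.65 for FFAs in co-culture (SE 0.28, limma adjusted p = 1.00). For co-culture with FFAs the LIF difference was 0.04 (SE 0.28). CTF1 in Caco-2 cells differed by 0.50 for co-culture without FFAs (SE 0.18, limma adjusted p = 0.867).

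Receptor transcripts were present. The shared subunit IL6ST had 106 to 168 TPM in Caco-2 and 86.8 to 155 TPM in HepG2 cells, and the IL-6 receptor IL6R had 7.98 to 12.9 TPM and 7.68 to 19.1 TPM. The lines differed in partner chains, with LIFR at 14.5 to 29.9 TPM and OSMR at 24.3 to 53.3 TPM in HepG2 cells, against at most 0.50 and 1.22 TPM in Caco-2 cells. IL11RA had 2.15 to 8.24 TPM in Caco-2 and 1.80 to 3.58 TPM in HepG2 cells. Unadjusted p-values under 0.05 were found for 3 receptor genes. In HepG2 cells, IL6R differed by -0.47 with FFAs (SE 0.16, limma adjusted p = 1.00) and LIFR by -0.39 with co-culture (SE 0.16, limma adjusted p = 0.357). IL11RA in Caco-2 cells differed by 0.43 with co-culture (SE 0.18, limma adjusted p = 0.445).

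Among 14 transducers and liver transcription factors, none passed the adjusted threshold within a line. The highest were the C/EBP factor CEBPA in Caco-2 cells (110 to 214 TPM) and STAT3 in HepG2 cells, which had 141 to 187 TPM there and 58.1 to 75.1 TPM in Caco-2 cells. STAT5A in HepG2 cells, at 2.58 to 9.86 TPM, differed by -0.76 with co-culture (SE 0.16, limma adjusted p = 0.115). Of 9 other inhibitors of the pathway, none of those tested in a line had an unadjusted p under 0.05 there for averaged co-culture or FFAs. SOCS2 and PTPRD averaged under 1 TPM in every HepG2 group and were not tested within HepG2 cells. PTPN2, a phosphatase, was the highest of them in Caco-2 cells (53.7 to 68.9 TPM) and PIAS1 in HepG2 cells (31.6 to 48.2 TPM). Between the lines, 6 of these 9 were called lower in HepG2 cells, against 39.0% of all genes tested. Among the 6 was SOCS2, at 31.6 to 47.1 TPM in Caco-2 and 0.47 to 1.00 TPM in HepG2 cells. SOCS2 and PTPRD, also among the 6, passed the filter only through Caco-2 groups, so the filter largely set the direction of their calls.

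Of 15 other targets of STAT3 tested in HepG2 cells, 1 passed the adjusted threshold for averaged co-culture, HAMP, which encodes the iron hormone hepcidin and also responds to bone morphogenetic proteins. HAMP had 0.63, 1.45 and 1.14 TPM in mono-culture control, 0.61, 0 and 5.43 TPM with FFAs, 84.9, 64.2 and 153 TPM in co-culture control and 15.5, 136 and 45.9 TPM in co-culture with FFAs, a difference of 4.99 (SE 0.53, limma adjusted p = 0.00953). Without replicate 3 of every group it was 5.23 (SE 0.58, limma adjusted p = 0.0508). PIM3 differed by 0.47 (SE 0.18, limma adjusted p = 0.297) and CCND1 by 0.28 (SE 0.12, limma adjusted p = 0.375). The median over the 15 was 0.22, against -0.02 over all genes.

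In Caco-2 cells none of the 15 passed, and 3 were higher and 2 lower at an unadjusted p under 0.05. HAMP, 1 of the 15, passed the filter there only through co-cultured groups. It had 5.18 TPM in control replicate 1 and 4.2 TPM in FFAs replicate 1, the libraries with the most HepG2 marker RNA. The other Caco-2 libraries had at most 0.59 TPM, and whether partner RNA bears on HAMP there was not tested. Of all 15081 Caco-2 genes tested, 915 were higher and 663 lower at that level. MYC differed by -0.37 (SE 0.11, limma adjusted p = 0.329), PIM1, a kinase induced by STAT3 and STAT5, by 0.51 (SE 0.16, adjusted p = 0.332) and CCND1 by -0.25 (SE 0.09, adjusted p = 0.390). CCND1 was thus on opposite sides of 0 in the lines. The highest genes of this list were FOS, whose Caco-2 level ranged from 124 to 928 TPM, and FGL1 in HepG2 cells (228 to 821 TPM).

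A list of other positive acute-phase genes, a class that rises in plasma during inflammation, was also read. Whether every listed gene, A2M among them, belongs to that class in humans was not tested. In mono-cultured controls, 18 of 19 listed genes were called higher in HepG2 than in Caco-2 cells, against 23.4% of all genes tested. For any listed gene under 1 TPM in every Caco-2 group, the filter largely set that direction. The most abundant were A2M in HepG2 cells (4907 to 7927 TPM) and SERPINA1 in Caco-2 cells (1053 to 1598 TPM), while APCS, the pentraxin closest to CRP, was listed at 0 throughout. Within a line none passed the adjusted threshold. The fibrinogen chains, which are classical IL-6 targets, pointed in opposite directions in the lines. In Caco-2 cells the averaged co-culture differences were 0.73 for FGA (SE 0.14, limma adjusted p = 0.213), 1.15 for FGB (SE 0.24, limma adjusted p = 0.249) and 0.82 for FGG (SE 0.18, limma adjusted p = 0.273). In HepG2 cells they were -0.43 for FGA (SE 0.11, limma adjusted p = 0.174), -0.28 for FGB (SE 0.09, limma adjusted p = 0.275) and -0.42 for FGG (SE 0.09, limma adjusted p = 0.125).

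The libraries with the most HepG2 RNA are to be read apart here. In co-culture FFAs replicate 1, FGA was 75.2 TPM, and the HepG2 share times the HepG2 mean came to 40.7 TPM. In co-culture control replicate 2 and FFAs replicates 2 and 3, which hold 0.0901% to 0.247% of HepG2 marker RNA, FGA was 70.9, 74.9 and 56.6 TPM with 1.75, 4.80 and 2.07 TPM from that product. Of all 14255 HepG2 genes tested, 1004 were lower and 785 higher at an unadjusted p under 0.05 for averaged co-culture. The 5 positive acute-phase genes at that level in HepG2 cells were all lower. How many of that list were tested in HepG2 cells is not given here, so the 5 carry no conclusion about it. Of 9 negative acute-phase genes, those that fall in plasma during inflammation, 5 were also lower at that level. They were led by APOA1 at -0.46 (SE 0.11, limma adjusted p = 0.128) and SERPINA6 at -0.77 (SE 0.20, limma adjusted p = 0.167). The highest gene of this negative list was ALB in HepG2 cells (20460 to 33859 TPM) and APOA1 in Caco-2 cells (up to 15488 TPM). TF, which encodes transferrin, was at -0.29 (SE 0.09, limma adjusted p = 0.211). The 15 genes listed as hepatocyte markers summed to 70774 to 91414 TPM in co-cultured and 86689 to 104982 TPM in mono-cultured HepG2 libraries. Of these 15, 1 passed the adjusted threshold for averaged co-culture, APOC3 at -0.73 (limma adjusted p = 0.0478). Its call held in 6 of 22 alternatives, with adjusted p from 0.0165 to 0.127, and was lost in 11 of the 12 fits that left out a single library. Whether this general level of liver transcripts bears on the members was not tested.

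With FFAs averaged over cultures, no gene of these lists passed the adjusted threshold in either line. IL1RN, the interleukin-1 receptor antagonist, had the smallest unadjusted p of the positive acute-phase genes in HepG2 cells, with a difference of -0.47 (SE 0.14, limma adjusted p = 1.00).

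Genes of the IL-1 and NF-kB pathways, which act with STAT3 at SAA and CRP genes, were also read. IL1B had 0.37 to 1.93 TPM in Caco-2 and at most 0.24 TPM in HepG2 cells, and TNF had at most 0.36 TPM. NFKBIA, the NF-kB inhibitor and target, was the highest of this list in both lines, at 54.6 to 141 TPM in Caco-2 and 157 to 521 TPM in HepG2 cells. In Caco-2 cells, NFKBIZ, which encodes the co-activator IkB-zeta, differed by 0.86 with co-culture (SE 0.17, limma adjusted p = 0.249) and NFKBIA by 0.46 (SE 0.20, limma adjusted p = 0.452). In HepG2 cells TNFRSF1A differed by 0.42 (SE 0.14, limma adjusted p = 0.278). Receptors for the members' proteins that were tested showed no unadjusted p under 0.05 for averaged co-culture or FFAs. SCARB1, which binds lipoproteins that carry SAA, had 192 to 254 TPM in Caco-2 and 217 to 291 TPM in HepG2 cells, and the haptoglobin receptor CD163 had at most 1.06 TPM.

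The genes most like SOCS3 across the 12 HepG2 libraries, by Pearson r of log2(TPM + 1), were SAMD1 (0.90), FASTKD1 (0.87), NSMCE2 (0.84), CAPN15 (0.83) and PSMA5 (0.83). Across the 11 Caco-2 libraries they were GAS2L3 (0.92), TOB1 (0.89), AC136475.1 (0.89), PPP2R2D (0.89) and AL031058.1 (0.89). No gene was among the closest 5 in both lines. SAA4 in HepG2 cells was closest to NOC2L (0.96) and DOHH (0.95). HP was examined as well because of its replicate 3 levels: its closest HepG2 genes were SERPING1 (0.96), PDIA6 (0.96) and SERPINA3 (0.94), of which SERPING1 and SERPINA3 are on the acute-phase list. These values share libraries and were chosen as the highest of many, and carry no test.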

How the data were processed

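mRNA was amplified by the authors with the SMART-Seq v4 kit. Reads from rRNA, tRNA and the mitochondrial genome were removed by the authors with Bowtie2 2.1.0, the rest mapped to GRCh38 with STAR 2.7.1a, and the deposited TPM per gene were estimated with RSEM 1.3.0. These steps could not be varied. Each library summed to 999999 to 1000003 TPM. The labels give serum in the treatment medium, whereas the methods describe serum-free medium with albumin.

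The members and gene lists were chosen with earlier results of these data known. From the other lists, genes were named by highest mean TPM in a line, by the 3 smallest unadjusted p under 0.05 for averaged co-culture or FFAs, or as gp130 ligands and receptors. SOCS2, IL1B, TNF, CD163, APCS, APOC3, SPP1, TTR and the genes most like HP were named after their values were seen.

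Values were analysed as log2(TPM + 1), in R 4.3.3 with limma 3.58.1 (eBayes with trend). The 4 groups of a line entered a single fit (8 groups for the comparison of lines), with genes of at least 1 TPM mean in at least 1 group and Benjamini-Hochberg adjustment over all genes tested. The analysis of variance used genes above 0 TPM in at least 1 library (a fold of 1.2 is 0.263 on the log2 scale), and its p for members was also taken from exact permutation of libraries. Tests were two-sided and were tried on simulated data. Other steps used scipy 1.17.1, numpy 2.4.6, Biopython 1.88, pandas 2.3.3 and matplotlib 3.10.9 under Python 3.11.15. Gene coordinates and coding sequences are from GENCODE v44 (GRCh38). Some items that these rules cover are not reported here.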

Additional observations from a re-analysis of the deposited data

How the results depend on the processing

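No member passed the adjusted threshold within a line under any alternative tried: another pseudocount, filter, scaling or trend setting, a fit of only the groups compared, subtraction of partner RNA, close copies summed, the replicate block, and each library or replicate 3 left out. Between the lines, 5 members were called, and 6, with HPX, without HepG2 mono-culture control replicate 3. Members past the criteria of the study in HepG2 cells numbered 1, and 0 with Benjamini-Hochberg adjustment. In Caco-2 cells they numbered 0, and 0 to 1 with single libraries left out, SOCS3 being called without co-culture FFAs replicate 1 or 3. The SOCS3 co-culture difference in HepG2 cells ran from 0.57 (without co-culture control replicate 2) to 1.09 (pseudocount 0.1), with adjusted p from 0.0596 to 0.385. That of HAMP ran from 4.61 to 6.18 and was called in 19 of 22 alternatives, and APOC3 was called in 6 of 22. The labels do not say what a replicate number shares, and it was taken to pair samples only if every same-numbered pair correlated above 0.1. In HepG2 cells 15 of 18 same-numbered pairs did (0.0284 to 0.601, median 0.305), against 7 of 36 pairs of different numbers (median -0.226). In Caco-2 cells 7 of 15 did (-0.0926 to 0.312, median 0.088), against 6 of 30 (median -0.119). The rule was thus not met in either line, although same-numbered HepG2 libraries were the more alike. Compared within a number, co-culture was higher in 6 of 6 HepG2 pairs for SAA4 and SOCS3, and FFAs were lower for SOCS3 in 6 of 6 HepG2 and 5 of 5 Caco-2 pairs. Numbers enter these pairs more than once, and the rule for pairing was not met. The share of all genes that do the same is not given here, so these counts carry no conclusion. With the number as a replicate block, 1 Caco-2 member (HP) met the criteria of the study, and calls for averaged co-culture went from 8 to 492 genes in HepG2 and from 0 to 60 in Caco-2 cells. In HepG2 cells that block brought, among others, APOA1 (limma adjusted p = 0.0102), HPR (0.0193), STAT5A (0.0205), SERPINA6 (0.0248), TTR of the negative acute-phase list (0.0307), FGG (0.0314), CCND1 (0.0328) and TF (0.0332) under the threshold for averaged co-culture, while SAA4 (0.119) and SOCS3 (0.0596) stayed above it. In HepG2 cells 10 of 12 libraries were closest to a library of their own number, and 7 of 11 in Caco-2 cells. Unadjusted p under 0.05 was reached in 6 of 77 member contrasts, 14 of 77 with the block and 18 of 84 without replicate 3 of every group. The total of 84 includes SAA4 in Caco-2 cells, which passed the filter there only through co-culture FFAs replicate 1. That library had 2.06 TPM of SAA4 and the highest HepG2 marker share (2.09%). The shares of all genes under the same settings are not given here, so the rise in these counts carries no conclusion. The alternatives on close copies and replicate 3 were added after the data were seen. A marker limit of 0.1 TPM left 0 HepG2 genes, so it gives no value for Caco-2 libraries. Without a Caco-2 co-culture control, the lone library left is assumed to vary like the other groups. Unknown depth limits what can be said of members near 0 TPM.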
